A study of Homo sapiens with 6 samples.

Results

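The clustered protocadherin genes are the PCDHA, PCDHB and PCDHG genes of human chromosome 5. They were taken as every RefSeq protein-coding gene of GRCh38 whose symbol starts with PCDHA, PCDHB or PCDHG within a fixed 900000-bp interval of chromosome 5 that spans all 3 clusters and their flanks. This gave 53 genes of the 19974 protein-coding genes on chromosomes 1 to 22 and X. The alpha cluster has 15 genes (chr5:140786140-141012347), the beta cluster 16 (chr5:141051374-141249365) and the gamma cluster 22 (chr5:141330514-141512975). Neighbouring gene starts within a cluster are 3374 to 45459 bp apart, with a median of 6328 bp.

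The series holds 6 ChIP-seq libraries from tumorspheres, floating clusters in a medium for neural precursors, of the established line D283, which represents Group 3 medulloblastoma, a childhood tumor of the cerebellum. In OTX2low cells OTX2, a homeodomain transcription factor, had been silenced with 30 nM siRNA, and OTX2high cells had received a scramble siRNA that silences no gene. H3K4me3, found on nucleosomes at promoters that are active or poised, and H3K27me3, the product of Polycomb repressive complex 2, were each profiled in 1 library per condition, beside 2 IgG libraries. All libraries come from this single line, and no condition has a replicate, so every difference below compares 2 libraries and has no replicate check.

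Clustered protocadherins are adhesion proteins of the cell surface that give a neuron its molecular identity and let its own branches recognise and avoid each other. In the alpha and gamma clusters each gene is a variable first exon with its own promoter, spliced to a shared set of constant exons, whereas each beta gene is a single exon. A single neuron, or a clonal cell line, transcribes only some of the alternate first exons, while the C-type isoforms (PCDHAC1, PCDHAC2 and PCDHGC3 to PCDHGC5) are expressed more widely among neurons. The promoter of a chosen exon carries H3K4me3, and unchosen exons are kept silent largely by DNA methylation and H3K9 methylation, which were not measured here.

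Most of these promoters share a short sequence element upstream of the start, described in the literature as the conserved sequence element, and its 6 letters GNCGCT were searched in the RefSeq promoters (GRCh38.p14, 250 bases before to 50 after the start). A promoter was found for 47 of the 53 genes; PCDHA3, PCDHA13, PCDHB6, PCDHB11, PCDHGA12 and PCDHGC5 had none in the table. GNCGCT on either strand was in 45 of the 47 promoters (95.7%), against 43.9% of all 27305 promoters. On the strand of the gene and starting within 100 bp before the start it was in 42 of the 47, against 12.2% of all promoters, and the 54 sites on that strand lay at a median of -58.5 bp from the start. The following 24-base stretches, all on the plus strand of GRCh38.p14, show the element with GNCGCT in capitals, for genes that carried an H3K4me3 peak in both conditions, in OTX2low only and in neither.

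In both conditions, with PCDHA11 at chr5:140868887-140868910, PCDHA12 at chr5:140875248-140875271, PCDHAC1 at chr5:140926224-140926247, PCDHB10 at chr5:141192303-141192326, PCDHB14 at chr5:141223267-141223290, PCDHB15 at chr5:141245318-141245341, PCDHGB1 at chr5:141350029-141350052 and PCDHGA10 at chr5:141412935-141412958, the stretches read as follows.
PCDHA11: ggcgcaaggtGTCGCTctttactt
PCDHA12: gtcacatgatGTCGCTctacactc
PCDHAC1: agaaggtgtgGTCGCTcacgttca
PCDHB10: gccacacggtGGCGCTgcaggcta
PCDHB14: gacacatggtGGCGCTacaggata
PCDHB15: aacgcatggtGGCGCTgcaggcta
PCDHGB1: acctctgggcGCCGCTgtcgacca
PCDHGA10: gactctgagcGCCGCTgttcacct

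In OTX2low only, the stretches were those of PCDHA8 (chr5:140841134-140841157), PCDHB9 (chr5:141187078-141187101), PCDHGA4 (chr5:141354964-141354987), PCDHGA7 (chr5:141382653-141382676) and PCDHGA8 (chr5:141392572-141392595).
PCDHA8: gccacatgatGTCGCTgtctacca
PCDHB9: gccacaaggtGGCGCTgcagactg
PCDHGA4: gactctgggtGTCGCTgttcacca
PCDHGA7: gactcacagcGCCGCTgttcacca
PCDHGA8: gactgtaagcGCCGCTgttcacct

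Without a peak in either condition were PCDHA1 (chr5:140786090-140786113), PCDHB12 (chr5:141208647-141208670), PCDHGA1 (chr5:141330407-141330430) and PCDHGC4 (chr5:141484956-141484979).
PCDHA1: gccacatgatGTCGCTgtacacca
PCDHB12: gacgcgtggtGGCGCTgcaggata
PCDHGA1: gactgtgggcGCCGCTgttcacta
PCDHGC4: gagcccgggaGCCGCTgtctgcca

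The letter at the open position went with the cluster. Within 100 bp before the start, GTCGCT stood on the gene's strand in 11 of 13 alpha promoters, GGCGCT in 12 of 14 beta promoters and GCCGCT in 13 of 20 gamma promoters, with GTCGCT in another 5 gamma promoters (PCDHGA2 to PCDHGA6). Searched on both strands, these hexamers are in 8.15%, 21.6% and 22.6% of all promoters in the order given. PCDHA9, PCDHAC2 and PCDHGB7 had no GNCGCT on the gene's strand. GNCGCT on either strand was in 9 of 9 promoters of genes marked in both conditions, 7 of 8 of those marked in OTX2low only and 29 of 30 of those marked in neither, so promoters with and without H3K4me3 both carried it, and the marked groups are too small to compare frequencies. These letters were chosen with the promoter sequences in view, so the shares are descriptions.

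The promoters were poor in G and C for promoters of the genome, with a median GC content of 39.7% against 58.3% over all promoters. The C-type promoters stood apart: GC content was 66% for PCDHAC1, 63% for PCDHAC2, 59% for PCDHGC3 and 60.7% for PCDHGC4. Marked and unmarked exons overlapped in GC content, which had a median of 38% (range 35.7 to 66%) for genes marked in both conditions, 37.5% (32.3 to 47.7%) for OTX2low only and 40.7% (33.3 to 60.7%) for neither.

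H3K4me3 was called at the first exon of a minority of the genes. A first exon counts as marked when a peak touches the window from 1000 bp before to 2500 bp after the gene start. In OTX2low 20 of 53 genes were marked (37.7%), against a background of 69% of the 15819 protein-coding genes whose strand was known. In OTX2high 11 of 53 were marked (20.8%), with a background of 69.6%. The OTX2low peaks lay at 7 alpha, 5 beta and 8 gamma genes, and the OTX2high peaks at 5 alpha, 4 beta and 2 gamma genes. By isoform class, the OTX2low list marked 2 of 5 C-type genes, 5 of 13 alternate alpha, 6 of 12 gamma A, 2 of 7 gamma B and 5 of 16 beta genes. The OTX2high list marked 2 of the 5 C-type genes, 3 of the 13 alternate alpha, 1 of the 12 gamma A, 1 of the 7 gamma B and 4 of the 16 beta genes.

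**Figure D1:**
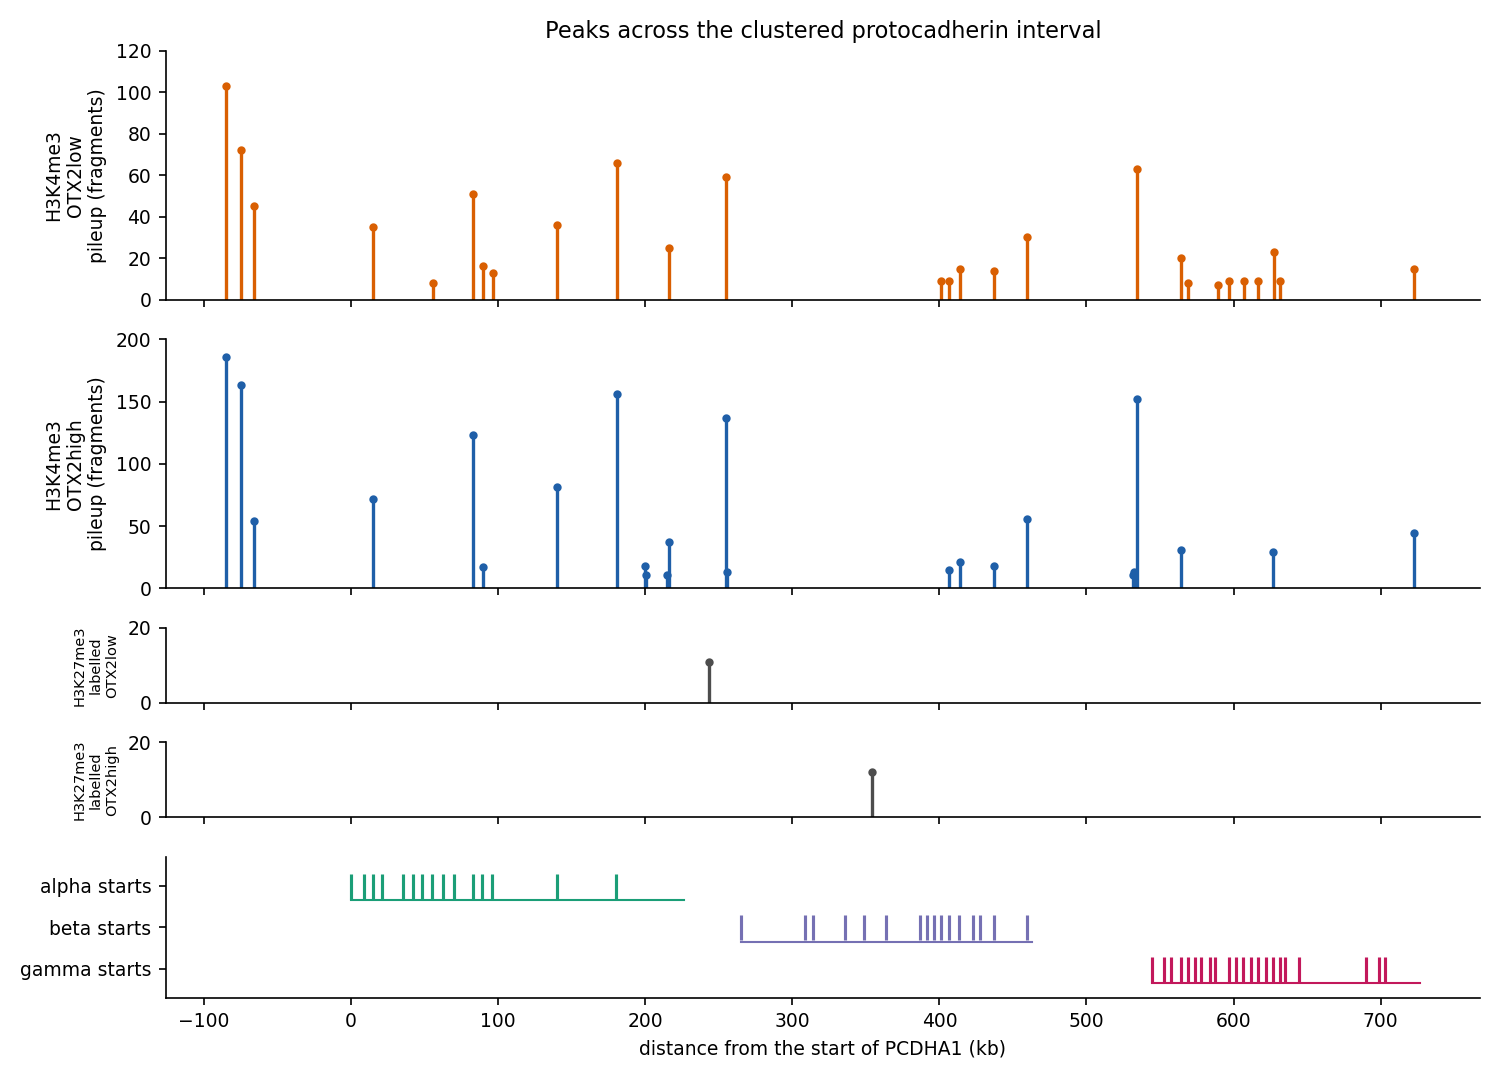
Peaks of the interval by distance from the start of PCDHA1 in kb, OTX2low above OTX2high; each stem is 1 peak at its summit and its height is the authors' pileup in fragments, on a scale of its own per H3K4me3 list. The H3K4me3 lists hold 27 (OTX2low) and 24 (OTX2high) peaks and each H3K27me3 list holds 1, and ticks below mark the 53 gene starts.

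**Figure D2:**
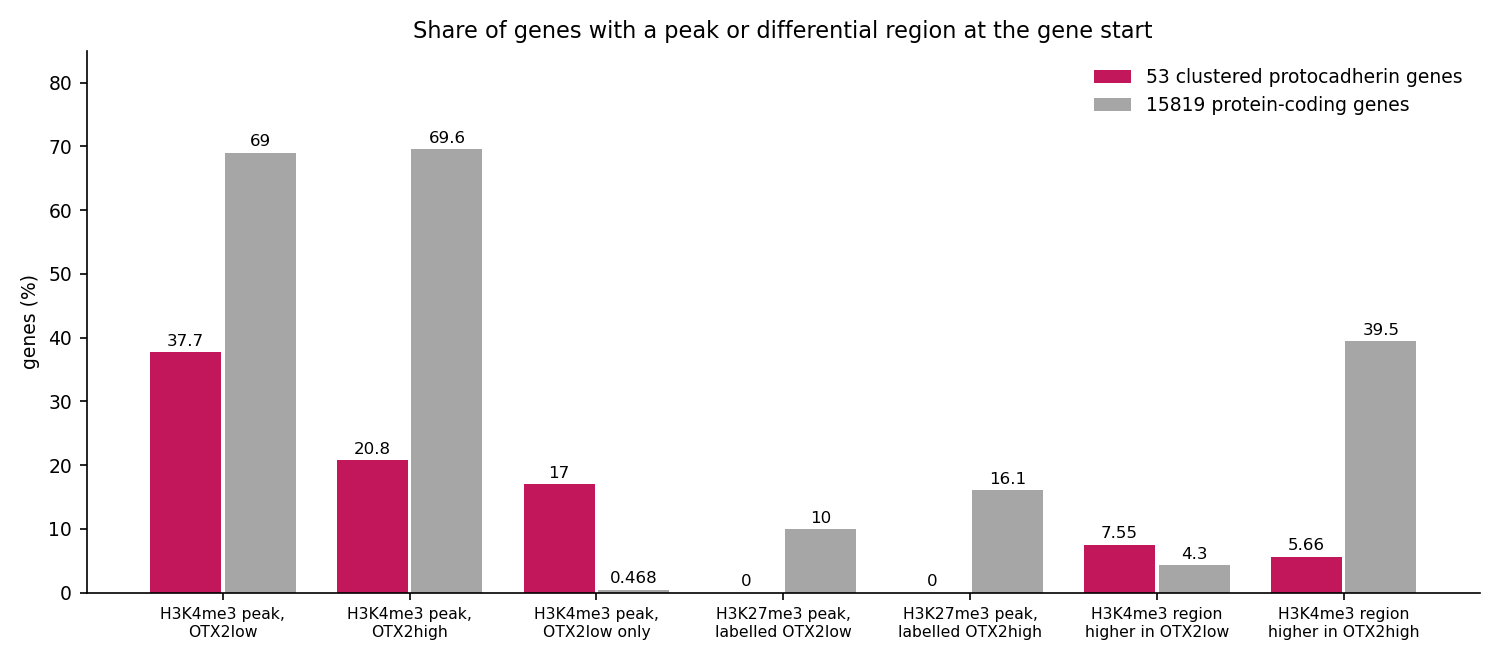
Percent of the 53 clustered protocadherin genes (pink) and of 15819 protein-coding genes (grey) with each call in the window around the gene start. Both H3K4me3 lists and both H3K27me3 lists marked a smaller share of the protocadherin genes than of all genes, and H3K4me3 in OTX2low only was at 17.0% of them (9 genes), a count that was 0 with a -log10 q of at least 5 and 2 with the narrower window.

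The 11 genes marked in OTX2high were all marked in OTX2low too (background for both lists 68.5%): PCDHA3, PCDHA11, PCDHA12, PCDHAC1 and PCDHAC2, PCDHB10, PCDHB11, PCDHB14 and PCDHB15, and PCDHGB1 and PCDHGA10. A further 9 genes were marked in OTX2low only, 17.0% of the members against a background of 0.468%, and none in OTX2high only, where the background was 1.08%. The count in OTX2low only depends on the settings: it was 0 with peaks of a -log10 q of at least 5, and 2, beside 2 in OTX2high only, with a window of 250 bp before to 50 bp after the start. No peak was at PCDHGC3, PCDHGC4 or PCDHGC5, so the C-type genes with a peak were those of the alpha cluster. The remaining 33 genes had no H3K4me3 peak in either list.

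Height is given by the authors' pileup, the number of overlapping fragments at the summit, and since the libraries differ in depth it is comparable within a list and not between them. The same 5 genes led both lists. PCDHAC2, a C-type isoform, had a pileup of 66 in OTX2low and 156 in OTX2high. PCDHA11 followed with 51 in OTX2low and 123 in OTX2high, and PCDHAC1 with 36 in OTX2low and 81 in OTX2high. PCDHA3 had 35 in OTX2low and 72 in OTX2high, and PCDHB15, the leading beta gene, 30 in OTX2low and 56 in OTX2high. Alternate alpha exons were thus marked unevenly, with 2 of the 13 carrying tall peaks and their neighbours low peaks or none.

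The gamma genes were lower. PCDHGA10 had a pileup of 23 in OTX2low and 29 in OTX2high, and PCDHGB1 had 20 in OTX2low and 31 in OTX2high. PCDHA12 had 16 in OTX2low and 17 in OTX2high. Among the other beta genes, PCDHB11 had 15 in OTX2low and 21 in OTX2high, PCDHB14 had 14 in OTX2low and 18 in OTX2high, and PCDHB10 had 9 in OTX2low and 15 in OTX2high.

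Most of these peaks were low for promoters, and that of PCDHAC2 in OTX2high was near the median. Among all genes with a peak, PCDHAC2 stood at the 28.2nd percentile of pileup in OTX2low and the 52.7th in OTX2high, and PCDHA11 at the 16.5th in OTX2low and the 32.4th in OTX2high. The other marked members lay below the 9th percentile in OTX2low and below the 15th in OTX2high. The median pileup over marked members was 13.5 in OTX2low and 31 in OTX2high, against 87 in OTX2low and 153 in OTX2high at the other genes with a peak. The peaks were also short, with a median length of 368.5 bp in OTX2low and 824 bp in OTX2high, against 2244 bp in OTX2low and 2625 bp in OTX2high at other genes.

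**Figure D3:**
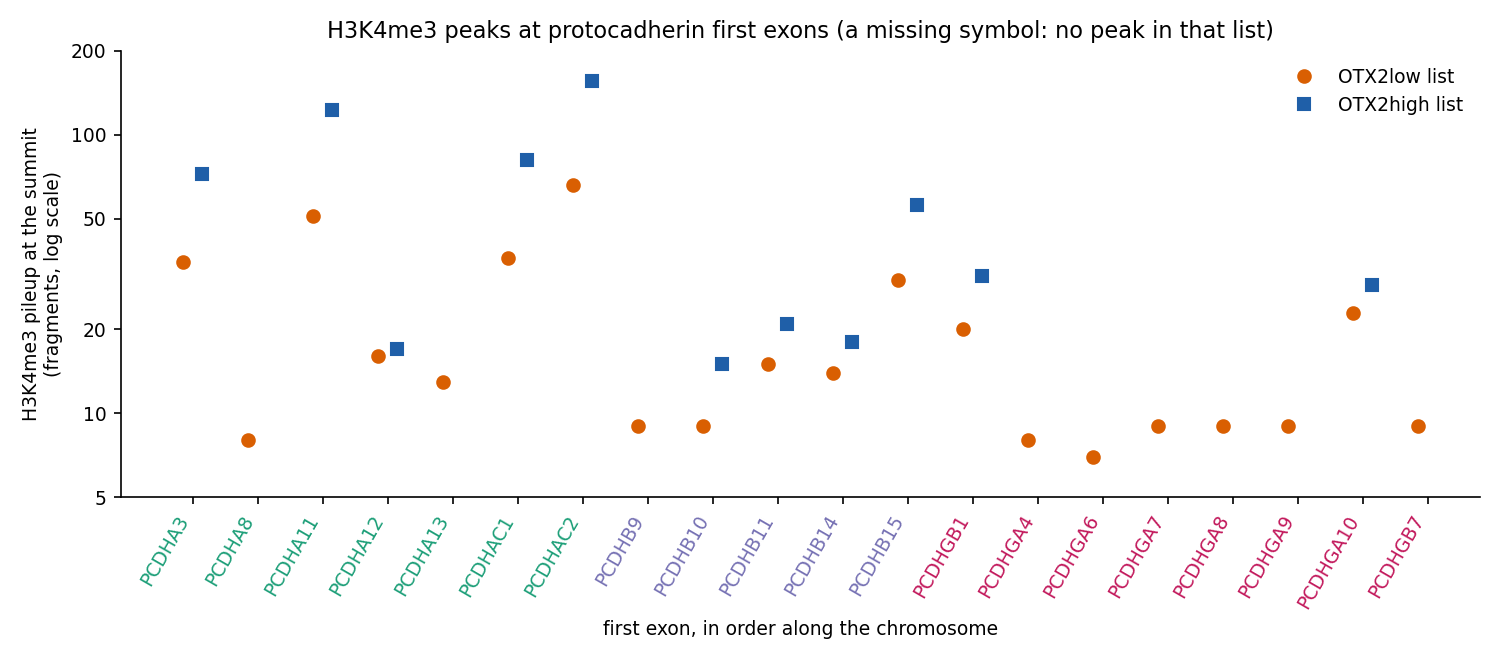
H3K4me3 pileup at the summit (fragments, log scale) for the 20 marked first exons, in order along the chromosome, with OTX2low as circles left of OTX2high as squares; gene names are green for alpha, violet for beta and pink for gamma. PCDHAC2, PCDHA11, PCDHAC1, PCDHA3 and PCDHB15 are the 5 tallest in both lists, and the 9 genes with a circle alone have pileups of 7 to 13.

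The summits lay just inside the genes. The median distance from start to summit was 227.5 bp in OTX2low and 201 bp in OTX2high, and 95% of the OTX2low summits and 100% of the OTX2high summits lay after the start. For PCDHAC2 the summits were 135 bp after the start in OTX2low and 139 bp in OTX2high, for PCDHA11 204 bp in OTX2low and 193 bp in OTX2high, and for PCDHB15 90 bp in OTX2low and 134 bp in OTX2high. The summits of the 2 lists were farthest apart at PCDHB11, by 260 bp, and at PCDHGA10, by 108 bp. Far from the median were PCDHGB7, with its OTX2low summit at -14 bp, just before the start, and PCDHGA6, whose OTX2low peak was 1602 bp inside the gene.

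The 9 first exons marked in OTX2low only had low peaks. PCDHA13 had a pileup of 13. PCDHB9, PCDHGA7, PCDHGA8, PCDHGA9 and PCDHGB7 had 9, PCDHA8 and PCDHGA4 had 8, and PCDHGA6 had 7, where the lowest peak of the whole list had 6. Of the 9, 6 are gamma genes, and 4 of these follow each other among the gamma A exons (PCDHGA6 to PCDHGA9) with gamma B exons between them. Their -log10 q ran from 1.83 at PCDHGA6 to 4.85 at PCDHA13. When peaks were limited to a -log10 q of at least 5, 10 genes were marked in OTX2low (background 68.3%) and 11 in OTX2high (background 69%), none in OTX2low only (background 0.322%) and 1, PCDHB10, in OTX2high only (background 1.06%). With a window of 250 bp before to 50 bp after the start, 10 genes were marked in OTX2low (background 64.9%) and 10 in OTX2high (background 65.9%), with 2 in OTX2low only (background 0.449%) and 2 in OTX2high only (background 1.52%). OTX2low was the shallower library, with 20914582 tags after filtering against 33137731 in OTX2high. The IgG controls of the lists differed too, with 55079542 tags for OTX2low and 85840108 for OTX2high. The part of depth and of the control in these calls was not tested.

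PCDHAC2 carried the broadest H3K4me3 peak of the interval. It was 5988 bp long in OTX2low (chr5:140965673-140971660), a length reached by 216 of the 28824 peaks of that list. In OTX2high it was 8188 bp long (chr5:140965224-140973411), a length reached by 117 of 33201 peaks. It ran from 803 bp before to 5184 bp after the start in OTX2low, and from 1252 bp before to 6935 bp after it in OTX2high, so the OTX2high peak reached further on both sides. Peaks at the other first exons were at most 1579 bp long in OTX2low (PCDHA11) and 1656 bp in OTX2high (PCDHAC1).

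**Figure D4:**
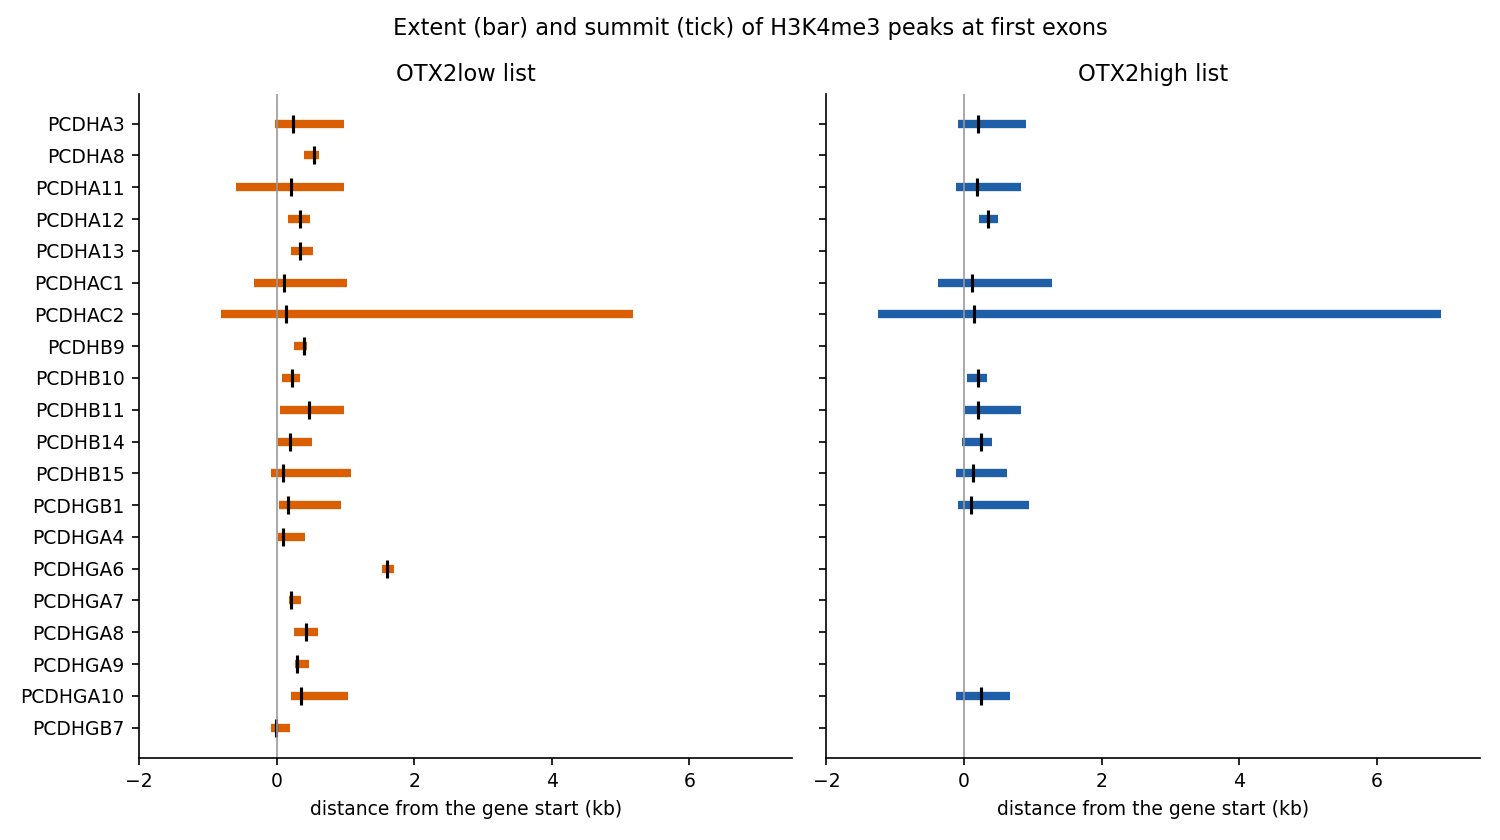
Extent (bar) and summit (black tick) of the H3K4me3 peak at each marked first exon, as distance from the gene start in kb, OTX2low left of OTX2high. The PCDHAC2 bars span 5988 bp in OTX2low and 8188 bp in OTX2high, the PCDHA11 bar reaches further upstream in OTX2low, and rows without a bar had no peak in that list.

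The comparison between conditions rests on the authors' deposited table of differential regions, made from read signal in 1000-bp windows with a G-test of 1 library against 1. Its log2 ratios are OTX2high over OTX2low, so a negative value means higher in OTX2low, and its median over all 21714 regions was 0.61. At the first exons, 6 of 53 genes had a differential H3K4me3 region in the authors' deposited table (11.3%, background 42.9%). By the same table a region higher in OTX2low was at 4 genes, PCDHA11, PCDHB12, PCDHB15 and PCDHGA8 (7.55%, background 4.3%). A region higher in OTX2high was at 3, PCDHA11, PCDHAC2 and PCDHGA10 (5.66%, background 39.5%). The share higher in OTX2high was below its background, in genes that also had fewer peaks than the background. The share higher in OTX2low rests on 4 genes and lies near its background, and with the window of 250 bp before to 50 bp after the start it was 1 gene (1.89%, background 1.73%). The 95% intervals below are exact conditional intervals on the whole reads behind the normalized values, and cover counting error only.

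PCDHAC2 had the strongest region. The authors' deposited table gives it 1054.25 normalized reads in OTX2low and 2303.83 in OTX2high over 8200 bp (chr5:140964801-140973000), from 841 recovered reads in OTX2low and 2888 in OTX2high. The log2 ratio was 1.13 (95% interval 1.02 to 1.24), 2.19-fold higher in OTX2high, and the authors' deposited table lists its adjusted p as 0. Its interval lies above the median of all regions, by 0.52 at the estimate. Of the 983 regions of the table with summed reads within 2-fold of it, 95.8% had a lower log2 ratio. The promoter sequence from which this broad peak extends carries GNCGCT on the opposite strand only, and is shown whole (chr5:140966226-140966525, plus strand), in lower case since no capital marks apply on the gene's strand.
PCDHAC2: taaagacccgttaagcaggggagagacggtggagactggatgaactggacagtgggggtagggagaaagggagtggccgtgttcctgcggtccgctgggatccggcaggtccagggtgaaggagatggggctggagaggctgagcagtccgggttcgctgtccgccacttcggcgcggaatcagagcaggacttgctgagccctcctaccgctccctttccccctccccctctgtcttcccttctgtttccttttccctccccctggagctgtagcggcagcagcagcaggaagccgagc

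At PCDHA11, an alternate alpha exon, adjacent regions went in opposite directions. Upstream, from 2156 to 57 bp before the start (chr5:140866801-140868900), the authors' deposited table gives 67.69 normalized reads in OTX2low and 17.55 in OTX2high, from 54 reads in OTX2low and 22 in OTX2high. The log2 ratio was -1.95 (95% interval -2.73 to -1.21), 3.86-fold higher in OTX2low, and the authors' deposited table lists its adjusted p as 2.94e-06. Of the 3136 regions with summed reads within 2-fold of this upstream region, 6.09% had a lower log2 ratio. Around the start and inside the exon, from 56 bp before to 943 bp after the start, the authors' deposited table gives 160.46 normalized reads in OTX2low and 238.52 in OTX2high, from 128 reads in OTX2low and 299 in OTX2high. Here the log2 ratio in the authors' deposited table was 0.57 (95% interval 0.27 to 0.88; adjusted p 0.00279), which is -0.04 relative to the median of all regions, so its direction turns with centring. The OTX2low peak (chr5:140868360-140869938) began 483 bp further upstream than the OTX2high peak (chr5:140868843-140869782) and also ended 156 bp further downstream. The authors' deposited hotspot table joins both regions into a hotspot (chr5:140866801-140869900) with an adjusted p of 0.00554. A long non-coding RNA gene, LOC112267934, lies within 1 kb of both regions, so their signal need not belong to PCDHA11 alone. The authors' deposited table has 36 pairs of touching regions, 72 of its 21714 regions (0.332%), and all 36 pairs are of opposite direction. With no touching pair of like direction, these pairs offer no comparison for the directions at PCDHA11. The change of direction falls within the promoter shown next (chr5:140868707-140869006, plus strand; GNCGCT in capitals).
PCDHA11: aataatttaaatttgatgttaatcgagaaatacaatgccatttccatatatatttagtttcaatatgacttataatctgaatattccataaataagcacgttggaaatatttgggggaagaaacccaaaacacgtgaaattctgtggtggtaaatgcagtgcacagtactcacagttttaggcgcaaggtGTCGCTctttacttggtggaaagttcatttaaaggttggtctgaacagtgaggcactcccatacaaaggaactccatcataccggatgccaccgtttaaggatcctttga

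PCDHB15, the leading beta gene, carried more H3K4me3 inside its exon in OTX2low than in OTX2high. From 606 to 2505 bp after the start (chr5:141246001-141247900) the authors' deposited table gives 68.95 normalized reads in OTX2low and 18.35 in OTX2high, from 55 reads in OTX2low and 23 in OTX2high. The log2 ratio was -1.91 (95% interval -2.68 to -1.18), 3.76-fold higher in OTX2low, and the authors' deposited table lists its adjusted p as 3.29e-06. Of the 3090 regions with summed reads within 2-fold of this region, 6.63% had a lower log2 ratio. The OTX2low peak ends at 141246470 and the OTX2high peak at 141246019, while both begin within 38 bp of each other, at 141245320 in OTX2low and 141245282 in OTX2high. The promoter (chr5:141245145-141245444, plus strand) had no differential region over it and carries GGCGCT before the start, in capitals.
PCDHB15: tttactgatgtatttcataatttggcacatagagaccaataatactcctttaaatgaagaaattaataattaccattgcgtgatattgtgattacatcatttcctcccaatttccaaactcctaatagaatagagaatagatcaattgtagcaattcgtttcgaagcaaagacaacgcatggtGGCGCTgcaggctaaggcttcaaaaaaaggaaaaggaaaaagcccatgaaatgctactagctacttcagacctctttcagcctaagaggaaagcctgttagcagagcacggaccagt

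In the gamma cluster called regions lay at the first exons of PCDHGA10 and PCDHGA8. At PCDHGA10, from 786 bp before to 213 bp after the start (chr5:141412201-141413200), the authors' deposited table gives 7.52 normalized reads in OTX2low and 31.91 in OTX2high, from 6 reads in OTX2low and 40 in OTX2high. The log2 ratio was 2.08 (95% interval 0.84 to 3.61), with an adjusted p of 0.00214 in the authors' deposited table. Of the 4533 regions with summed reads within 2-fold of this region, 62% had a lower log2 ratio, so it was not extreme among them. The OTX2high peak there began at 141412865 and the OTX2low peak at 141413191, so the OTX2high peak reached into the promoter and the OTX2low peak lay wholly after the start. Its promoter is shown with GNCGCT in capitals (chr5:141412737-141413036, plus strand).
PCDHGA10: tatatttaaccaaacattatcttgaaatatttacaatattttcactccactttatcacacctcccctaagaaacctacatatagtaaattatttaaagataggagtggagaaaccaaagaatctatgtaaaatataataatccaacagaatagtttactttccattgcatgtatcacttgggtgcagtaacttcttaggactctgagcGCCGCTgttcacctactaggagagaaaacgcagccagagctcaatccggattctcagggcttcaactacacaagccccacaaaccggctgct

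PCDHGA8 went the other way. From 368 to 1367 bp after its start (chr5:141393001-141394000) the authors' deposited table gives 22.56 normalized reads in OTX2low and 3.19 in OTX2high, from 18 reads in OTX2low and 4 in OTX2high, a log2 ratio of -2.82 (95% interval -4.84 to -1.22; adjusted p 0.00199). Of the 6354 regions with summed reads within 2-fold of this region, 41% had a lower log2 ratio and 54.1% were higher in OTX2low, so it was not extreme among them. PCDHGA8 was also among the genes with a peak in OTX2low only, and is the only 1 of those 9 with a differential region.

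PCDHB12 had a differential region and no peak. From 2382 to 3381 bp after its start (chr5:141211101-141212100) the authors' deposited table gives 16.3 normalized reads in OTX2low and 0.8 in OTX2high, from 13 reads in OTX2low and 1 in OTX2high. The log2 ratio was -4.35, with a 95% interval of -9.76 to -1.62 that reflects the single OTX2high read (adjusted p 0.00144 in the authors' deposited table). Of the 7903 regions with summed reads within 2-fold of this region, 16.2% had a lower log2 ratio and 45.5% were higher in OTX2low. This region only touches the far end of the PCDHB12 window, and the nearest gene start is that of PCDHB13. With an overlap of at least 200 bp it did not count, and 3 genes had a region higher in OTX2low. The background at that overlap was not computed. Apart from the genes named above, the other 47 had no called region. That does not show that the mark was equal there, since reads are tabulated for called regions only.

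**Figure D5:**
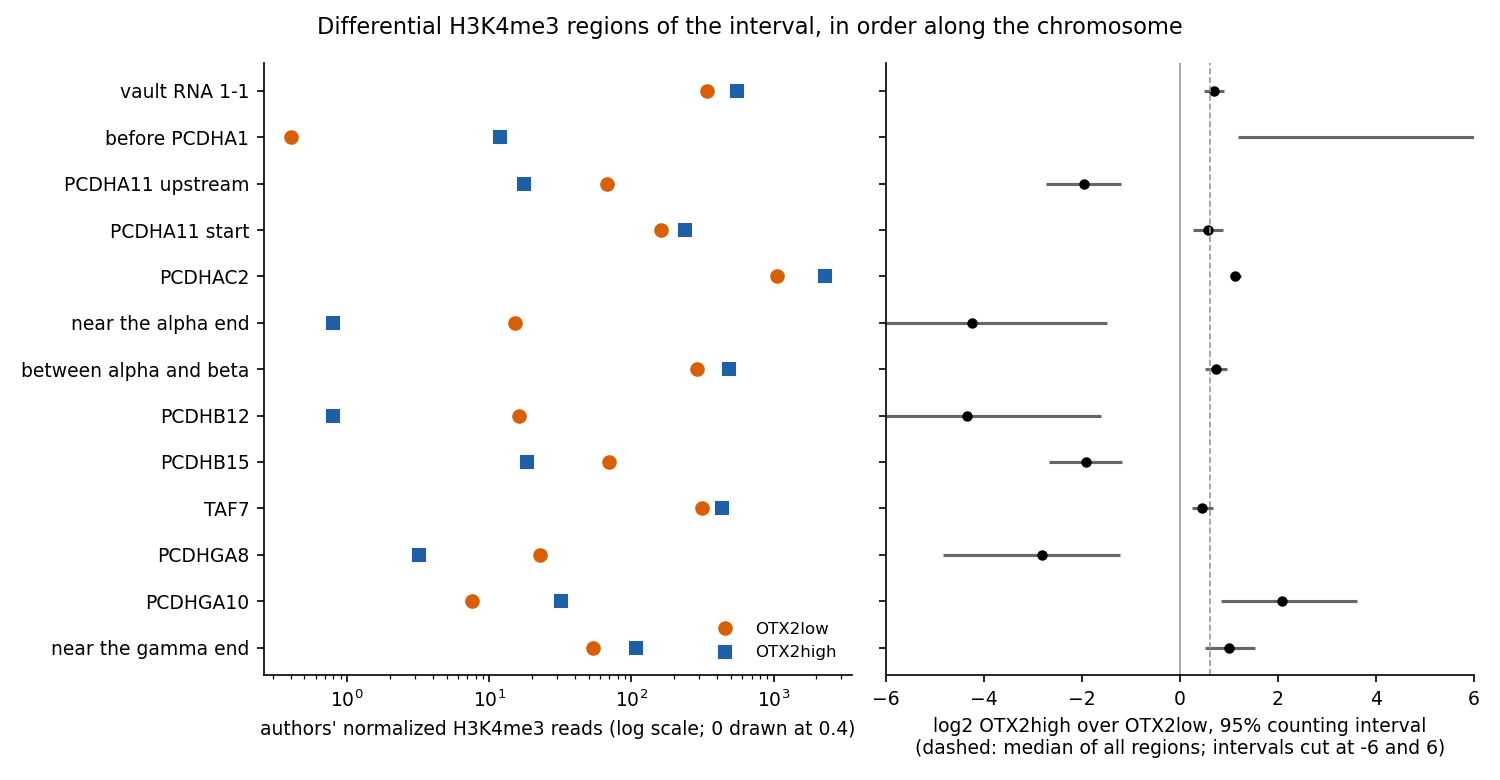
The 13 differential H3K4me3 regions of the interval, in order along the chromosome: normalized reads in OTX2low (circles) and OTX2high (squares) on a log scale at left, and the log2 ratio OTX2high over OTX2low with its 95% counting interval at right, beside 0 (solid) and the median of all regions, 0.61 (dashed). PCDHA11 upstream, PCDHB12, PCDHB15 and PCDHGA8 lie left of 0, at -1.95, -4.35, -1.91 and -2.82, and PCDHAC2 and PCDHGA10 lie right of the median, at 1.13 and 2.08.

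Outside the first exons the interval held further H3K4me3 sites, some of them shared by both lists. Of the 27 OTX2low peaks 7, and of the 24 OTX2high peaks 13, lay outside the first-exon windows. These include, in both lists, peaks before PCDHA1 at ZMAT2 and at vault RNA genes, and a peak at TAF7. Several of the OTX2high peaks, with pileups of 11 to 18, overlapped no OTX2low peak. A tall peak stood in the gap between the alpha and beta clusters, 28.4 kb after the alpha cluster and 10.6 kb (OTX2low) and 10.7 kb (OTX2high) before PCDHB1, with a pileup of 59 in OTX2low (chr5:141039453-141041042) and 137 in OTX2high (chr5:141039518-141041242). It had no annotated gene within 1 kb in the gene table, and its region in the authors' deposited table had 290.83 normalized reads in OTX2low and 484.22 in OTX2high, a log2 ratio of 0.74 (95% interval 0.51 to 0.96), 0.13 above the median of all regions. An enhancer of the alpha genes, HS5-1, is known from this gap, and its position relative to the peak was not analysed here. In the alpha cluster a peak 10.3 kb before the end, beside the constant region, had a pileup of 25 in OTX2low and 37 in OTX2high. Another region of the authors' deposited table by that constant region (chr5:141010301-141011300), with no peak, was higher in OTX2low, with 15.04 normalized reads in OTX2low and 0.8 in OTX2high, from 12 reads in OTX2low and 1 in OTX2high. Its log2 ratio in the authors' deposited table was -4.24 (95% interval -9.65 to -1.48; adjusted p 0.00266). Before PCDHA1 (chr5:140772601-140773700), again with no peak, the authors' deposited table gives 0 normalized reads in OTX2low and 11.97 in OTX2high, from 0 reads in OTX2low and 15 in OTX2high (adjusted p 0.00184), and no fold is given against 0. Of the 6 regions of the interval outside the first exons, 1 was thus higher in OTX2low and 5 in OTX2high. Most H3K4me3 regions of the genome were higher in OTX2high too, with 26.1% of all 21714 higher in OTX2low. With only 6 regions, this split does not set the interval apart. The 5 include regions within 1 kb of other genes, the vault RNA gene VTRNA1-1 and TAF7. Near the end of the gamma cluster, 3.93 kb (OTX2low) and 3.9 kb (OTX2high) before it, a peak had a pileup of 15 in OTX2low and 44 in OTX2high. The region over it in the authors' deposited table had 53.9 normalized reads in OTX2low and 108.49 in OTX2high, a log2 ratio of 1.01 (95% interval 0.50 to 1.54).

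By covered length the alpha cluster was the most marked, with 5.25% of it under H3K4me3 peaks in OTX2low and 6.38% in OTX2high. The gamma cluster had 2.12% in OTX2low and 1.57% in OTX2high, and the beta cluster 1.52% in OTX2low and 1.15% in OTX2high. Coverage in OTX2low was thus the lower in the alpha cluster and the higher in the other clusters. The libraries differ in depth, and over the genome the peaks covered 40021915 bp in OTX2low and 49321214 bp in OTX2high. The part of depth in the split between clusters was not tested. The gamma length in OTX2low includes the low peaks of the 6 gamma genes marked in OTX2low only. None of these peaks had a -log10 q of at least 5, and coverage by cluster was not recomputed without them. In the alpha cluster the PCDHAC2 peak alone gave 5988 of 11927 bp in OTX2low and 8188 of 14506 bp in OTX2high. Over the whole interval peaks covered 27234 bp in OTX2low (3.03%) and 30102 bp in OTX2high (3.34%).

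Called H3K27me3 peaks were all but missing from the interval. These are narrow peaks of 1 library per list, and read signal over the interval was not examined, so the mark itself is not shown to be absent. No first exon had an H3K27me3 peak, 0 of 53 in the list labelled OTX2low (background 10%) and 0 of 53 in the list labelled OTX2high (background 16.1%), so no gene had called peaks of both marks. The headers of these lists name the opposite condition to their sample labels, so they are called by label and no direction is drawn from them. The list labelled OTX2low had a single peak in the interval, of 79 bp with a pileup of 11, between the alpha cluster and PCDHB1 (chr5:141029414-141029492). The list labelled OTX2high had a single peak of 242 bp with a pileup of 12, 4827 bp after the start of PCDHB5 (chr5:141139943-141140184). Among 441 stretches of the genome of the same 900000 bp with at least 20 H3K4me3 peaks, the median number of H3K27me3 peaks was 15 in the list labelled OTX2low and 38 in the list labelled OTX2high. At most 1 such peak was in 28.6% of them in the list labelled OTX2low and in 13.2% in the list labelled OTX2high. The authors' deposited table held no differential H3K27me3 region in the interval. At the first exons this was 0 of 53 genes, against a background of 5.32% of gene starts.

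The protocadherins outside the clusters, single genes that also code for adhesion proteins, are given beside them. H3K4me3 was at 10 of 12 in OTX2low (background 69%) and 11 of 12 in OTX2high (background 69.6%). H3K27me3 was at 1 of 12 in the list labelled OTX2low (background 10%) and 8 of 12 in the list labelled OTX2high (background 16.1%). No direction is drawn from these counts, since the labels conflict and the fragment length was 78 bp in the first list and 169 bp in the second. In the authors' deposited table for H3K27me3, log2 ratios were -0.31 at PCDH1, -0.76 at PCDH8, -0.48 at PCDH10 and -0.5 at PCDH17. By the condition names of that table all 4 were higher in OTX2low. Whether those names or the opposite ones in the peak list headers are right was not tested, so this direction is uncertain too. The other genes had no H3K27me3 region there. In the authors' deposited table PCDH9, with 676.93 normalized reads in OTX2low and 310.31 in OTX2high (log2 ratio -1.13), and PCDH18, with 521.48 in OTX2low and 287.18 in OTX2high (log2 ratio -0.86), were higher in OTX2low. By the authors' deposited table PCDH19 (107.81 in OTX2low and 178.69 in OTX2high, log2 ratio 0.73) and PCDH7 (472.59 in OTX2low and 658.92 in OTX2high, log2 ratio 0.48) were higher in OTX2high, PCDH8 had regions of both directions, while 7 had none.

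Genes whose products shape or silence the locus were marked throughout. H3K4me3 was at all 20 of these genes in OTX2low (background 69%) and in OTX2high (background 69.6%), and H3K27me3 at none in either list (backgrounds 10% in the list labelled OTX2low and 16.1% in that labelled OTX2high). A region higher in OTX2high alone stood at 14 of them in the authors' deposited table, where the background for a region higher in OTX2high was 39.5%. That background includes genes without a peak, whereas all 20 had one, and 3 of the 20 were scored at both ends, so the shares are not like for like. Of the rest, 1 (REST, a repressor) had regions of both directions and 5 had none. The median log2 ratio was 0.56, below the median of all regions. CTCF, which loops promoters to enhancers here, had 246.95 normalized reads in OTX2low and 393.28 in OTX2high by the authors' deposited table (log2 ratio 0.67), and SMC1A, a cohesin subunit, 129.12 in OTX2low and 226.55 in OTX2high (log2 ratio 0.81). SMCHD1, a silencing factor of the clusters, had, by the authors' deposited table, 656.87 in OTX2low and 966.04 in OTX2high (log2 ratio 0.56). Partners in signaling and proteolysis had H3K4me3 at 25 of 25 genes in OTX2low and in OTX2high, beside the same backgrounds. Of these 25, the authors' deposited table has 14 higher in OTX2high (background 39.5%) and 2 in OTX2low (background 4.3%). FYN, a kinase of the Src family, had regions of both directions and 8 had none. Here too the background includes genes without a peak, and 6 of the 25 were scored at both ends. CTNNB1 (beta-catenin) had a log2 ratio of 1.13 in a region of few normalized reads, 35.1 in OTX2low and 76.58 in OTX2high. By the same table NCSTN (nicastrin, a subunit of gamma-secretase) was at -1, with 580.4 in OTX2low and 289.57 in OTX2high. CELSR3 (an atypical cadherin) was at -2.65, again with few reads, 30.09 in OTX2low and 4.79 in OTX2high.

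The other genes of the interval and markers of cell types are given for scale. TAF7, an intronless gene between the beta and gamma clusters, had an H3K4me3 pileup of 63 in OTX2low and 152 in OTX2high, near that of PCDHAC2. Of 10 markers of Group 3 medulloblastoma and its lineage, 9 had an H3K4me3 peak in both lists (all but NPR3), where the background for both lists was 68.5%. Of markers of other cells, 2 of 6 for glia, 0 of 6 for immune cells, blood and endothelium, and 3 of 6 for mesenchyme and epithelium had one in both lists. Scored at both ends, unlike the background, were 3 of the 10, and 3, 4 and 5 of the 6 in the order given. Such counts describe the mark and do not establish cell identity. By the authors' deposited table OTX2 itself had 1767.53 normalized H3K4me3 reads in OTX2low and 3119.1 in OTX2high (log2 ratio 0.82), though siRNA acts on the mRNA and the mark is no check of silencing.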

How the data were processed

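H3K4me3 and H3K27me3 ChIP-seq was done in 1 library per mark and condition of D283 tumorspheres. The submitters' processing notes name GRCh38 as the build, Bowtie2 (2.3.3.1) as aligner and MACS2 (2.1.1.20160309) as peak caller. Narrow peaks of each library were called alone, with 1 IgG library as control and q-values up to 0.05 kept, per the file headers. The authors' lists hold a pileup signal for each peak, with a −log10 q-value and an enrichment ratio over background; heights and enrichments are theirs. The H3K4me3 libraries had 20914582 tags in OTX2low and 33137731 in OTX2high, and the H3K27me3 libraries 33885628 in the list labelled OTX2low and 40271458 in that labelled OTX2high, after filtering, per the file headers. The IgG libraries carry conflicting labels and were put in no group.

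Differential regions come from diffReps (1.55.6). Its G-test p-value was adjusted by the authors over 663990 windows for H3K4me3 and 57553 for H3K27me3, as the file headers state. The authors' deposited tables hold normalized read signal and log2 ratios of OTX2high over OTX2low. H3K4me3 signal came in steps of 1.2536 per read in OTX2low and 0.7977 in OTX2high, whole within 0.05 for 99.9% and 98.1% of values, and a G-test on those reads called 21714 of 21714 regions, which were the authors' calls already.

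Windows, overlaps and intervals were computed with Python 3.11.15, pandas 2.3.3, numpy 2.4.6 and scipy 1.17.1; the G-test step was tested on simulated data. Strand came from the RefSeq promoter table; the 6 members without an entry were set to plus, the strand of the other 47, and other listed genes without one were scored at both ends. An overlap of at least 1 bp counted. How reads matching several near-identical exons were placed is not given in the sources used here, so values at close paralogs are uncertain. The genes named were those with a differential region, with a peak in 1 list only, or among the tallest 5 per cluster. The members and gene lists were chosen with earlier results of these data known. Alternatives were other windows, thresholds, overlaps and centring.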

Additional observations from a re-analysis of the deposited data

How the results depend on the processing

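Of 39 recomputed counts, lengths and shares whose main value was above 0, 31 stayed within 1.5 times that value and 8 did not. Another 34 had a main value of 0, which 32 kept, and a 0 that stays 0 says little of stability. With the window narrowed to 250 bp before to 50 bp after the start, 10 genes had an H3K4me3 peak in OTX2low, 2 in OTX2low only and 2 in OTX2high only, and 1 gene had a region higher in OTX2low. With peaks of −log10 q of at least 5, 10 genes were marked in OTX2low, 0 in OTX2low only and 1 in OTX2high only. With a fold enrichment of at least 4, 5 genes were marked in OTX2low only (PCDHA13, PCDHB9, PCDHGA7, PCDHGA8 and PCDHGA9). The length under H3K27me3 peaks in the list labelled OTX2high, 242 bp, became 0 with either threshold. Centring on the median of all regions turned the log2 ratio of the PCDHA11 region over the start to -0.04, since that region lay just below the median. The count of genes marked in OTX2high stayed at 11 under both peak thresholds. The G-test on recovered reads was chosen after seeing the data. No paired analysis was possible because each mark has 1 library per condition, and for the same reason no library could be left out. Intervals cover counting error only.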
